A study of Mus musculus with 24 samples.

Results

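Peritoneal macrophages (PMs) are the macrophages of the abdominal cavity, and here they were compared with microglia (MG) of the brain, Kupffer cells (KCs) of the liver and alveolar macrophages (AMs) of the lung. The comparison took the 12 libraries of FACS-sorted cells (ex vivo), 3 per population, out of the 24 libraries of the series. The other 12 libraries come from macrophages kept in culture and were left out. The study built a culture system for these macrophages, and the sorted cells were its reference.

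Every sorted library came from female C57BL/6J mice, which the labels put at 8 to 12 weeks of age, with no treatment and no altered gene named for any of them. PMs were sorted on CD45, CD11b, F4/80 and CD115, MG on CD45 and CD11b, KCs on CD45, CD11b, F4/80 and TIM-4, and AMs on CD45, CD11b and SiglecF. The genes of these surface proteins helped to choose the cells, so their levels are given as a description. Neither the labels nor the methods say whether the 3 libraries of a population came from separate mice, so the tests measure the spread between these libraries, which may be technical. Peritoneal cells were washed out by lavage, while brain was homogenized and liver and lung were digested with enzymes. Tissue, gate and isolation procedure changed together in this design and cannot be told apart.

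The peritoneal cavity holds large, long-lived resident macrophages and a smaller number of monocyte-derived ones. The large cells are known for the transcription factor GATA6, which retinoic acid induces and which keeps a set of genes particular to these cells active. They are also known to gather at injured surfaces and to take part in clotting through coagulation factor V. Since these are bulk libraries, fewer cells of a type and less RNA per cell cannot be told apart.

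The libraries held between 29569486 and 40277178 counted reads, and 15732 genes had enough reads to be tested. The PM markers Gata6, Prg4 and Retnla summed to between 6800.3 and 7401 CPM (read counts scaled to the TMM-normalized size of the library) in the PM libraries, and to at most 0.229 CPM in MG, 1.14 CPM in AMs and 26.1 CPM in KCs, so the data bear out the label of the PMs. The largest KC value came from KC replicate 1, which stood apart. Its log2 CPM correlated with those of the other KC libraries at 0.883 at the least, against 0.969 or more within PMs, MG and AMs. In that library, marker genes of T and NK cells summed to 243 CPM and those of dendritic cells to 873 CPM, both above every PM library and above the other KC libraries. The AM libraries had higher sums of the T and NK list, 449 to 581 CPM, nearly all of it Cd2 (447 to 573 CPM), and 1012 to 1151 CPM of the mesothelial and fibroblast list, nearly all of it Krt19 (1012 to 1151 CPM). Counts of genes against KCs, the mean and each of the 3 are given with and without KC replicate 1.

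A gene was called when the adjusted p of edgeR's quasi-likelihood test was below 0.05 and the log2 fold change was above 1.5 in size. Against MG, 2223 genes were higher in PMs (14.1% of those tested) and 1789 were lower (11.4%). Against KCs, 1130 were higher (7.18%) and 1764 lower (11.2%), and against AMs 1916 were higher (12.2%) and 1427 lower (9.07%). Against the mean of the 3 populations, taken over their fitted log2 levels, 1646 genes were higher (10.5%) and 940 lower (5.98%). Genes higher in PMs than in each of the 3 numbered 346 (2.20%), and genes lower than in each numbered 284 (1.81%). Both shares are the reference for the counts of list members called in all 3 comparisons. Without KC replicate 1, 1568 genes were higher and 1718 lower than in KCs, and 2026 and 981 than in the mean. The counts against each of the 3 were then 467 and 288, and 338 of the 346 and 256 of the 284 genes were called again. The 3 comparisons share the PM libraries, so they are not independent of each other.

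**Figure D1:**
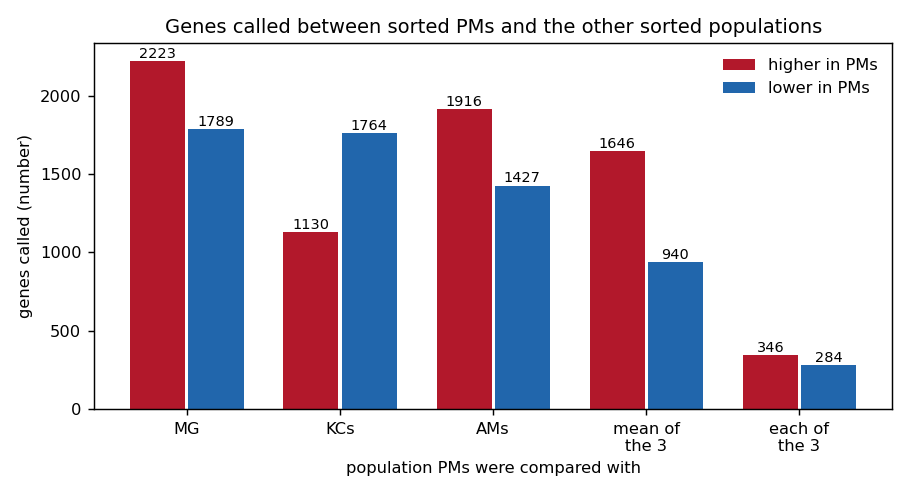
Number of genes (vertical axis) called higher (red) or lower (blue) in sorted PMs against MG, KCs, AMs, the mean of the 3 and each of the 3 (edgeR, adjusted p below 0.05 and log2 fold change above 1.5 in size). The bars run from 2223 genes higher than in MG down to 346 higher and 284 lower than in each of the 3.

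The genes higher than in each of the 3 summed to between 15.7% and 17.3% of the TMM-normalized size of a PM library. In the other libraries they summed to between 0.481% and 0.864% of it. The normalized size is the read total times a factor, 0.833 to 0.873 in PMs and 0.953 to 1.162 elsewhere. These percentages are therefore not shares of the reads, which were smaller in PMs. Per length of exon, Alox15, Saa3, Slpi, Cxcl13 and Pf4 ranked 5, 7, 8, 9 and 10 among all genes in PMs. The genes lower than in each of the 3 summed to between 0.220% and 0.262% of the normalized size in PMs, against 1.91% in KC replicate 1 and at least 3.20% in the rest. These sums describe genes chosen by the comparison and are no test of them.

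Gata6, the transcription factor named above, stood at 160.0, 161 and 154 CPM in the PM libraries. MG libraries held no read of it, KCs held 1 read in all and AMs 10 reads, all of the latter in 1 library. The PM libraries lay far above the others and hardly differed among themselves (largest adjusted p of the 3 tests 6.61e-06). Prg4, which codes for the lubricating glycoprotein lubricin, reached 6189.7, 5899 and 6190.2 CPM in PMs and at most 0.345 CPM in MG and AMs. In KCs it was at 6.42, 0.563 and 0.125 CPM, highest in replicate 1, and the largest adjusted p was 3.68e-05. Its locus overlaps Tpr on the opposite strand, which had 220.1 ± 18.2 CPM in PMs (SD, n = 3), and the library kit does not mark strand. Retnla, a secreted protein of the resistin family and a gene of alternative activation, was more uneven, with 451, 1036 and 1057 CPM in PMs. It was at 19.6 CPM in KC replicate 1 and at most 0.748 CPM in MG and AMs, and the groups did not overlap (largest adjusted p 0.00498).

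Of the 30 genes listed for large PMs, 22 were higher than in each of the 3 populations and none was lower, against 2.20% and 1.81% of all genes tested. Their median log2 fold change against the mean of the 3 was 8.74, and that of all genes tested was 0.02. Taken singly, it was 12.18 against MG, 6.21 against KCs and 11.89 against AMs. A population with almost no reads of a gene enlarges the fold change against the mean. The list holds the markers Gata6, Prg4 and Retnla and was chosen with earlier results of these data known. These values describe the list and are no test of it. The 8 members without a call in all 3 were F10, Ccl24, Nt5e, Timd4, Apoc1, Cebpb, Vsig4 and Cd9, and each was called higher against at least 1 population. Of the 15 genes listed for small PMs, 14 were tested, and Irf4 and Cd209a were higher than in each of the 3 while Itgax was lower. The Itgax call was lost under limma-voom. Ccr2, the chemokine receptor of monocyte-derived cells, was at 26.97, 28.3 and 66.2 CPM in PMs. It was higher than in MG and AMs and was not called against KCs, whose libraries had 93.3, 23.03 and 8.68 CPM (log2 fold change -0.04, SE 0.66). Irf4, a transcription factor of monocyte-derived cells, was at 19.00, 29.5 and 37.6 CPM, and its call was lost without PM replicate 3 or without any 1 of the MG libraries.

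**Figure D2:**
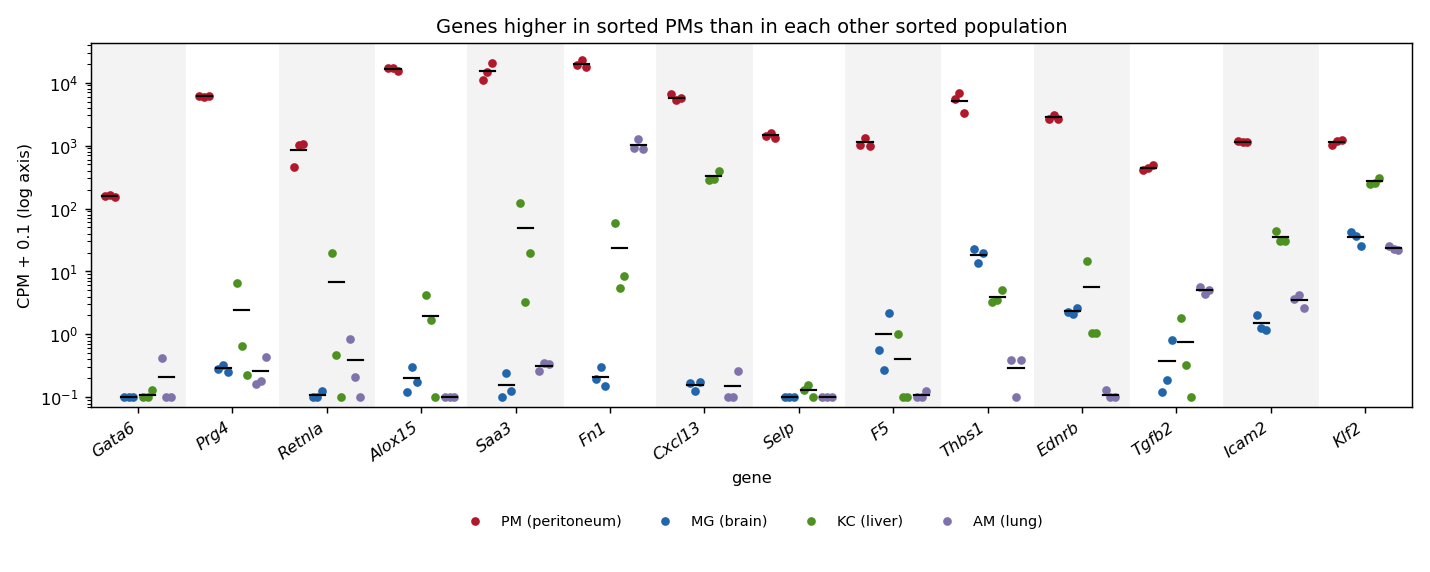
Normalized read counts (CPM + 0.1, log axis) of 14 genes, given along the horizontal axis, that were higher in sorted PMs than in each other population. Each point is 1 library and each bar the mean of 3, and the PM points lie above all 9 other points for every gene, with a PM mean of 158 CPM for Gata6 and 19658 CPM for Fn1.

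Genes higher in all 3 comparisons were ranked by their smallest log2 fold change, among those with a PM mean of at least 30 CPM and no overlap between PMs and the other 9 libraries. The first 25 were Ltbp1, Selp, Gm20619, Alox15, 1700047M11Rik, Prg4, Rprm, Serpinb2, Lama3, Gata6, F5, Wnt2, Asz1, Cgnl1, Ednrb, Padi4, Vmn2r26, Fam20a, Arg1, Prtn3, Saa3, Car6, Thbs1, Tox2 and Nxpe5. All 25 kept their calls under every alternative that gave them an adjusted p. DESeq2 gave none for Prg4, Serpinb2, Ednrb and Padi4, nor for the marker Retnla, so it did not call these genes. Some had no read in whole populations, where a bound is given in place of the fitted fold change, with 3 reads over the 3 libraries of a population as the floor. Gm20619 and 1700047M11Rik had no read in any of the 9 other libraries, and in PMs they were at 69.5, 68.2 and 67.2 CPM and 31.8, 18.7 and 42.4 CPM. Against KCs that was at least 2295-fold and at least 1041-fold higher.

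For 19 of these 25 genes RefSeq gave a promoter window on GRCm38.p6, from 250 bases before the transcription start to 50 bases after it, and 6 of the 19 held a GATA motif. The motif was searched as TGATAA or AGATAA and their reverse complements TTATCA and TTATCT. It was present for 46 of the 237 genes higher in PMs than in each of the 3 that had a window (19.4%), for 32 of 212 lower genes (15.1%), for 12.8% of tested genes with a window and for 20.96% of all genes with a window. A match is a match of letters only, and no binding was measured. The windows of 4 genes of the PM profile that are described below are shown, each with its GATA match in capitals. Tgfb2 lies at chr1:186705940-186706239 (minus strand), Serpinb2 at chr1:107511260-107511559 (plus), Wnt2 at chr6:18030396-18030695 (minus) and Saa3 at chr7:46715627-46715926 (minus), and all are written 5′ to 3′ in the direction of the gene. The match lies 2 bases after the start of the window shown in Tgfb2 and 41, 9 and 134 bases before it in Serpinb2, Wnt2 and Saa3. RefSeq gave Serpinb2 another window as well, chr1:107511173-107511472, for an earlier start. That window held no GATA match, and the one with the match was chosen for display.
Tgfb2: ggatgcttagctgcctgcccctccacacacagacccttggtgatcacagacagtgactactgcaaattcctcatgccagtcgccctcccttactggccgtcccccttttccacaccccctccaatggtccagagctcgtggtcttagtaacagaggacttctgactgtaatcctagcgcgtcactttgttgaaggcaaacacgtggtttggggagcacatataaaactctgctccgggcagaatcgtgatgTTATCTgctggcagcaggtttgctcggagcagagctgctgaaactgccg
Serpinb2: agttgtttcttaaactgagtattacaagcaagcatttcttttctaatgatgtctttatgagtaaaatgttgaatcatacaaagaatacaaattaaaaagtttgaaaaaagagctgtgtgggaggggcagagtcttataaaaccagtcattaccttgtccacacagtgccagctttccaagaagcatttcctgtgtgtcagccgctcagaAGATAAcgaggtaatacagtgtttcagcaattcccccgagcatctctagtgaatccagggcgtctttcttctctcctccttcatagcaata
Wnt2: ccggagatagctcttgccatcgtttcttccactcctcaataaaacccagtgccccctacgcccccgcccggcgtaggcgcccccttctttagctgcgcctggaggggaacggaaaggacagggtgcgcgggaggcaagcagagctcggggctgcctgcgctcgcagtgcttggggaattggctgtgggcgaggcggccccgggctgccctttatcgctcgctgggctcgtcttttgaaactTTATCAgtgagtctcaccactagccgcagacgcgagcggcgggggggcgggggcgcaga
Saa3: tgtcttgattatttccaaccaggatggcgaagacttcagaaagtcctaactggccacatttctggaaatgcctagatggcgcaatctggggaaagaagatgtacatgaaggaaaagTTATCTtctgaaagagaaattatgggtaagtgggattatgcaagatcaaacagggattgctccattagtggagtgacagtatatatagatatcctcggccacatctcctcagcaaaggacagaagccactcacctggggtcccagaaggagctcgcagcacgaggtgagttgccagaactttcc

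The window of the marker Retnla (chr16:48842359-48842658, plus strand) is shown for its C/EBP motif, in capitals. That motif was searched as TTGCNNAA and its reverse complement, and it was found in 16.5% of the windowed genes higher in PMs than in each of the 3, in 14.6% of the lower ones, in 10.5% of the tested genes with a window and in 12.2% of all genes with a window. Cebpb, which codes for a C/EBP factor, was at 997, 1203 and 767 CPM in PMs, 93.5 to 105 CPM in MG, 379 to 513 CPM in KCs and 1769.8 to 2223 CPM in AMs. It was called against MG alone.
Retnla: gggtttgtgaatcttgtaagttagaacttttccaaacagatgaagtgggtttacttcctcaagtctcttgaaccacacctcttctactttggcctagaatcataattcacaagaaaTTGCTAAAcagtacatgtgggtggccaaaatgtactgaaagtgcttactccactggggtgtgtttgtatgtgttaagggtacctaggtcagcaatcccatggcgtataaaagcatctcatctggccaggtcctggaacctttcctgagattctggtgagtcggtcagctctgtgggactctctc

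Of the 31 tissue macrophage transcription factors tested, Gata6, Rarb, Klf2 and Irf4 were higher than in each of the 3 and none was lower. Klf2, a factor known to restrain macrophage activation, was at 1035, 1190.1 and 1205 CPM in PMs. The highest other library was a KC one with 304 CPM, and the groups did not overlap (largest adjusted p 8.53e-06). Against MG, KCs and AMs taken singly, 8, 10 and 11 of the 31 were lower in PMs (11.4%, 11.2% and 9.07% of all genes) and 13, 8 and 9 were higher (14.1%, 7.18% and 12.2%). Sall1, a factor of microglia, was at 0.146 CPM at most in PMs against 695 to 786 CPM in MG. Spic, a factor of iron-recycling macrophages, was at 0.239 to 0.512 CPM, against 128 to 268 CPM in KCs. Pparg, which AMs need to form, was at 0.146 to 1.82 CPM against 367 to 399 CPM in AMs, and Nr1h3, the oxysterol receptor LXR alpha, at 4.86 to 6.83 CPM against 596 to 747 CPM in KCs.

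Among genes of retinoic acid, some receptors and degrading enzymes were higher in PMs. The median log2 fold change of the list was 1.37 against the mean and -0.43 against KCs. Of 19 tested members, Rarb, Rarg, Cyp26a1 and Cyp26b1 were higher than in each of the 3 and Tgm2 was lower. Rarb, a retinoic acid receptor and itself a known target of the hormone, was at 22.8, 30.2 and 24.5 CPM in PMs and at most 3.33 CPM elsewhere, in KC replicate 1. Rarg, another receptor, was at 77.7, 104 and 79.9 CPM, above AMs with 9.86 to 15.4 CPM and KCs with 1.94 to 14.6 CPM. Cyp26a1, which degrades retinoic acid, was at 25.4, 21.9 and 7.87 CPM, and its call was lost when PM replicate 1 was left out. Aldh1a2, which makes retinoic acid, was at 53.5, 49.9 and 33.7 CPM in PMs. It passed against MG and AMs and not against KCs (edgeR adjusted p = 0.0584), where only replicate 1 had reads, at 8.996 CPM. Tgm2, the tissue transglutaminase that retinoic acid is known to induce, had 11.7 to 14.9 CPM in PMs and at least 86.8 CPM elsewhere.

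Clotting genes were among the largest differences. Of 29 tested members of the coagulation and fibrinolysis list, F5, F13a1, Serpinb2, Thbs1, Pf4 and Selp were higher than in each of the 3, and Procr and Serpinf2 were lower. The median log2 fold change of the list against the mean was 0.02, equal to that of all genes, and the Serpinf2 call was kept under 13 of 21 alternatives. F5, coagulation factor V, was at 1020.4, 1339.8 and 998 CPM in PMs and at most 2.09 CPM in the other libraries. F13a1, the subunit of factor XIII that crosslinks fibrin, was at 662, 1236 and 830.0 CPM, against 20.6 CPM in KC replicate 1 and at most 0.879 CPM in MG and AMs. Both lay above all 9 libraries (largest adjusted p 2.3e-05 and 0.003). Selp, the adhesion receptor P-selectin, was at 1441, 1602 and 1309.8 CPM, with 3 reads in KCs and none in MG or AMs. Selp and F5 are neighbours on the same strand, within 5000 bases, and counting near their ends could mix them.

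Serpinb2, an inhibitor of plasminogen activators, was at 1619.5, 1201 and 1140.3 CPM and at most 2.25 CPM in KCs. MG and AMs held no read of it. Its gene overlaps Serpinb10 on the same strand, which had 29.6 ± 6.90 CPM in PMs (SD, n = 3). Thbs1, thrombospondin 1, was at 5416, 6731 and 3278 CPM and at most 22.3 CPM elsewhere. Pf4, platelet factor 4, was at 4342, 3302 and 3112 CPM and at most 41.98 CPM in any other library. Markers of erythrocytes and platelets, with Ppbp, Gp9 and Itga2b among them, summed to between 1.10 and 2.52 CPM in PMs. F10, factor X, was at 466, 529.9 and 589 CPM in PMs and 251 to 264 CPM in AMs and was not called between them (log2 fold change 1.05, SE 0.32). F7, factor VII, was higher in AMs, with 733 to 818 CPM against 124 to 165 CPM in PMs, and both factors were higher in PMs than in MG and KCs.

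Adhesion genes were called in both directions. Among 33 tested integrins and adhesion molecules, Itga6, Itga7, Icam2 and Selp were higher than in each of the 3, and Itgax, Itgb5 and Icam1 were lower. As said above, limma-voom did not call Itgax. Icam2, a ligand of leukocyte integrins by which large PMs are often recognized, was at 1162, 1126 and 1147 CPM, 32.7-fold above KCs, the nearest population. Itga6, the laminin-binding integrin alpha 6, was at 1533, 1912 and 1546 CPM against 434 to 548 CPM in MG, the nearest. Lama3, a laminin chain, was at 37.02, 37.2 and 42.8 CPM and at most 0.0563 CPM elsewhere. Itga7 was low even in PMs, at 0.767 to 3.34 CPM. Itgam, which codes for the gate marker CD11b, was at 3307, 4873 and 4017 CPM in PMs and 1608 to 1849 CPM in MG.

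In the TGF-beta and BMP list, with 43 members tested, Tgfb2, Bmp2, Ltbp1, Ltbp3 and Tgfbr3 were higher than in each of the 3, and Acvrl1 and Skil were lower. The median log2 fold change of the list against the mean was -0.23. Tgfb2, a TGF-beta ligand, was at 406, 440.4 and 491 CPM in PMs, 90.4-fold above AMs, the nearest population. Ltbp1, which ties latent TGF-beta to the matrix, was at 1863, 2376 and 1838 CPM, with 3 reads in MG, 1 in KCs and none in AMs. Tgfbr3, the co-receptor betaglycan, was at 19.9, 39.3 and 28.8 CPM and at most 1.21 CPM elsewhere. On the lower side, the receptor Acvrl1 (ALK1) was at 0.179 to 2.30 CPM in PMs against at least 38.7 CPM elsewhere, and Skil, an inhibitor of SMADs, at 8.26 to 10.9 CPM against at least 50.8 CPM. The Bmp2 call was lost without PM replicate 1 or 2. Wnt2, a secreted WNT ligand, was at 427, 416 and 377 CPM in PMs and at most 1.27 CPM elsewhere.

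Among 29 tested eicosanoid genes, Alox15, Ptgis and Ptges were higher than in each of the 3, and Hpgds was lower. Alox15, the 12/15-lipoxygenase, was at 17341, 17012 and 15237 CPM. KCs had at most 4.11 CPM, MG at most 0.201 CPM and AMs no read, so PMs were at least 572612-fold above AMs. Ptgis, the prostacyclin synthase, was at 674, 609.7 and 566 CPM against 46.4 to 96.7 CPM in KCs, the nearest population. Ptges, a prostaglandin E synthase, was at 33.4 to 39.9 CPM, with AMs next at a mean of 8.73 CPM. Hpgds, which makes prostaglandin D2, was at 0.924 to 1.37 CPM in PMs against 409 to 454 CPM in MG. Alox5, the leukotriene-forming lipoxygenase, was at 572 to 688 CPM in PMs and 648 to 735 CPM in AMs and was not called between them (log2 fold change -0.17, SE 0.65).

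Apoe, an apolipoprotein that carries lipids between cells, had the highest level per exon length in PMs after Lyz2, at 52748, 57471 and 58748 CPM. It was 2.80-fold above KCs, which missed the fold threshold, and 262-fold and 542-fold above MG and AMs. Of 27 tested apolipoprotein and lipid genes, Apoc2, Apoc4 and Fabp4 were higher than in each of the 3, and Abcg1, a cholesterol exporter, was lower. Apoc2, the cofactor of lipoprotein lipase, was at 339, 445 and 502 CPM, with KCs next at 9.68 to 17.00 CPM. In the cholesterol synthesis list, with 27 members tested, Acaca, the first enzyme of fatty acid synthesis, was higher in all 3, at 90.4 to 105 CPM against at most 17.8 CPM. Scd2, a desaturase, was lower, at 3.62 to 13.7 CPM against at least 59.1 CPM, and 14 members were lower than in AMs, where 9.07% of all genes were lower. No member of the fatty acid oxidation or glycolysis lists was called in all 3 in either direction, out of 31 and 22 tested. With 2.20% of all genes higher and 1.81% lower in all 3, lists of this size may well hold none.

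Saa3, a serum amyloid A, was at 11134, 14819 and 20469 CPM in PMs, 124, 3.21 and 19.6 CPM in KCs and at most 0.254 CPM in MG and AMs. Slpi, a protease inhibitor of mucosal surfaces, averaged 6041 ± 637 CPM (SD, n = 3) and Lyz1, a lysozyme, 2462 ± 163 CPM. Lyz1 shares much sequence with Lyz2, so reads could be split between them. C4b, a complement component with a close copy in C4a, was at 5969, 9114 and 6156 CPM against 435 to 931 CPM in KCs, the nearest population. In the Toll-like receptor list, with 31 members tested, Lbp, which hands lipopolysaccharide to CD14, and Naip1, an inflammasome sensor with near-identical relatives, were higher in all 3. Lbp averaged 228 ± 19.1 CPM in PMs, and the Naip1 call was lost without PM replicate 2. Arg1, arginase 1, was at 248, 365 and 256 CPM and at most 1.11 CPM in any other library. With Retnla and Fn1 it made up the 3 of 22 tested alternative activation genes that were higher in all 3, while Tgm2, Socs2 and Flt1 were lower and the median of that list against the mean was -2.22. The Socs2 call was kept under 17 of 21 alternatives, and the Flt1 call was lost when each pair was fitted alone. Of 26 tested complement genes, C4b alone was higher in all 3 and Itgax alone lower, and the Itgax call was lost under limma-voom. No member of the Fc receptor or CSF lists was called in all 3, out of 7 and 6 tested. Over all genes tested, 2.20% were higher and 1.81% lower in all 3, so such small lists may well hold none.

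Of 25 tested chemokines, Cxcl13, Pf4, Ccl9 and Cxcl12 were higher than in each of the 3, and Ccl3, Ccl4 and Cxcl10 were lower. Cxcl13, which draws B cells, was at 6482, 5229.9 and 5662 CPM, and KCs followed with 279.6 to 401 CPM. Cxcl12, the ligand of CXCR4, was at 114, 103 and 100.2 CPM against at most 4.65 CPM. Ccl3, an inflammatory chemokine, was at 1.28 to 4.06 CPM in PMs against at least 17.8 CPM elsewhere. The Ccl4 call was kept under 16 of 21 alternatives, and the Cxcl10 call was lost without PM replicate 2 or 3. Among 19 tested receptors, Ccr1 and Ackr3, which scavenges CXCL12, were higher in all 3. Cxcr3 and Cxcr6 were lower, with no read in PMs, and both calls were lost under limma-voom and when each pair was fitted alone. Both are known from T and NK cells, whose markers summed to 1.28 to 5.85 CPM in PMs, 33.7 to 243 CPM in KCs, 449 to 581 CPM in AMs, mostly Cd2, and at most 0.729 CPM in MG, and the part of such cells was not tested.

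Fn1, fibronectin, was at 18838, 22628 and 17508 CPM, 19.3-fold above AMs, the nearest population. Ecm1, an extracellular matrix protein, averaged 5967 ± 191 CPM, and Emilin2, a glycoprotein of elastic fibres, was at 4076, 5691 and 4101 CPM against at most 404 CPM. Ednrb, the endothelin receptor B, was at 2627, 3095 and 2660.1 CPM, with 14.5 CPM in KC replicate 1. Padi4, which turns arginine into citrulline in histones, was at 2766, 2713 and 2351 CPM and at most 13.7 CPM elsewhere. Cgnl1, a protein of cell junctions, was at 360.2, 374 and 352 CPM and Tox2, a transcription factor, at 198, 168 and 138 CPM. Neither overlapped the other 9 libraries, where the highest values were 1.35 and 1.23 CPM.

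Genes lower than in each of the 3 were ranked in the same way, with a mean of at least 30 CPM in each of the other populations. The first 25 were F11r, Havcr2, Grk3, Ggta1, Parvg, Amz1, Pald1, Itgb5, Rnf180, Adrb1, Prdm1, P2ry13, Cd83, Tbc1d9, Acvrl1, Gadd45g, Cd300c2, Rab3il1, Arhgap27, Lilra5, Otulinl, Sh2d3c, Il1a, Coro1a and Dtx3. All 25 kept their calls under every alternative that gave an adjusted p. F11r, the junctional adhesion molecule A, had 2 reads in PMs, against 961 to 996 CPM in MG, 402 to 461 CPM in AMs and 27.3 to 56.5 CPM in KCs. Havcr2, the checkpoint receptor TIM-3, was at 0.183, 0 and 0 CPM in PMs and at least 13.7 CPM in every other library. Itgb5, the beta chain of a receptor for apoptotic cells, was at 5.96, 5.78 and 3.94 CPM and at least 360.4 CPM elsewhere.

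Parvg, an integrin-linked adaptor, was at 0.0895 to 1.79 CPM in PMs against at least 72.8 CPM elsewhere. Coro1a, an actin-binding protein of leukocytes that overlaps Bola2 on the opposite strand, was at 29.2, 20.8 and 47.6 CPM in PMs and 215 to 803 CPM in the other populations. The groups did not overlap (largest adjusted p 0.000118). Adrb1, the beta-1 adrenergic receptor, was at 0.537 to 1.01 CPM against at least 41.9 CPM, and P2ry13, a receptor for ADP, at 3.40 to 6.36 CPM against at least 119.9 CPM. Prdm1, a transcriptional repressor, was at 0.0365, 0 and 1.43 CPM against at least 15.9 CPM. Cd83 and Il1a, genes of activated macrophages, were at 2.15 to 4.20 CPM and 5.26 to 7.96 CPM in PMs, and at least 111 CPM and 70.00 CPM elsewhere.

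**Figure D3:**
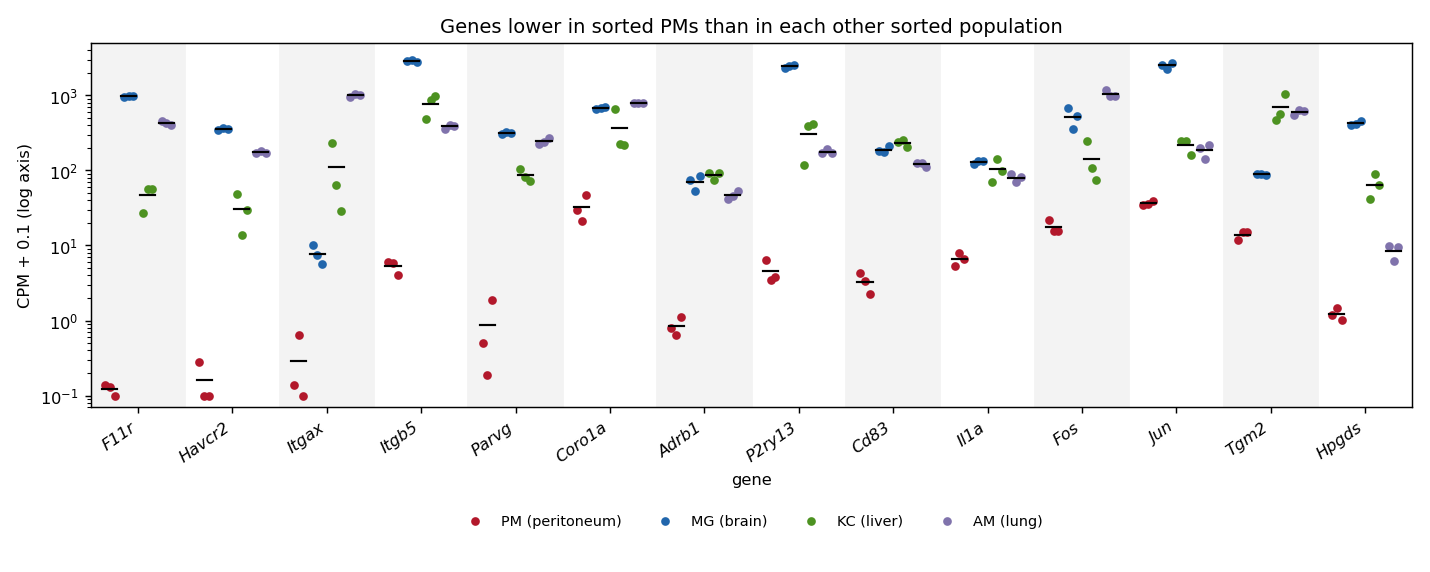
Normalized read counts (CPM + 0.1, log axis) of 14 genes, given along the horizontal axis, that were lower in sorted PMs than in each other population, with 1 point per library and a bar at the mean of 3. The PM points lie below the 9 others for each gene, from F11r with 2 reads in PMs to Coro1a with a PM mean of 32.6 CPM.

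Immediate early genes, which respond quickly to stimulation, differed in part. Of 29 tested members of the immediate early and heat shock list, Fos, Fosb and Jun were lower than in each of the 3 and none was higher. Of all genes tested, 1.81% were lower and 2.20% higher. Fos was at 21.7, 15.3 and 15.6 CPM in PMs, against 74.5 to 246 CPM in KCs, 354 to 682 CPM in MG and 978 to 1187 CPM in AMs. Jun was at 34.9, 36.02 and 39.6 CPM against at least 141 CPM elsewhere. The Fosb call was lost when each pair was fitted alone. Egr1 was lower than in MG and not called against KCs or AMs, and Nr4a1 was higher than in MG and lower than in KCs and AMs. The isolation procedure differed by tissue, and its part in these levels was not tested.

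Of 29 tested genes for scavenging and the uptake of dying cells, Msr1 and Colec12, both scavenger receptors, were higher than in each of the 3 while Mertk and Itgb5 were lower. The Colec12 call was lost without PM replicate 2 or AM replicate 3. Msr1 was at 1356, 1715 and 1425 CPM, 3.28-fold above KCs, the nearest population. Mertk, a receptor tyrosine kinase for apoptotic cells, was at 141, 198 and 155 CPM against at least 255 CPM, and its call was kept under 11 of 21 alternatives. Timd4, which codes for TIM-4 and served to gate the KCs, was at 1783, 1805 and 1314 CPM in PMs, at 477, 1113 and 1048 CPM in KCs and without a read in MG and AMs.

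**Figure D4:**
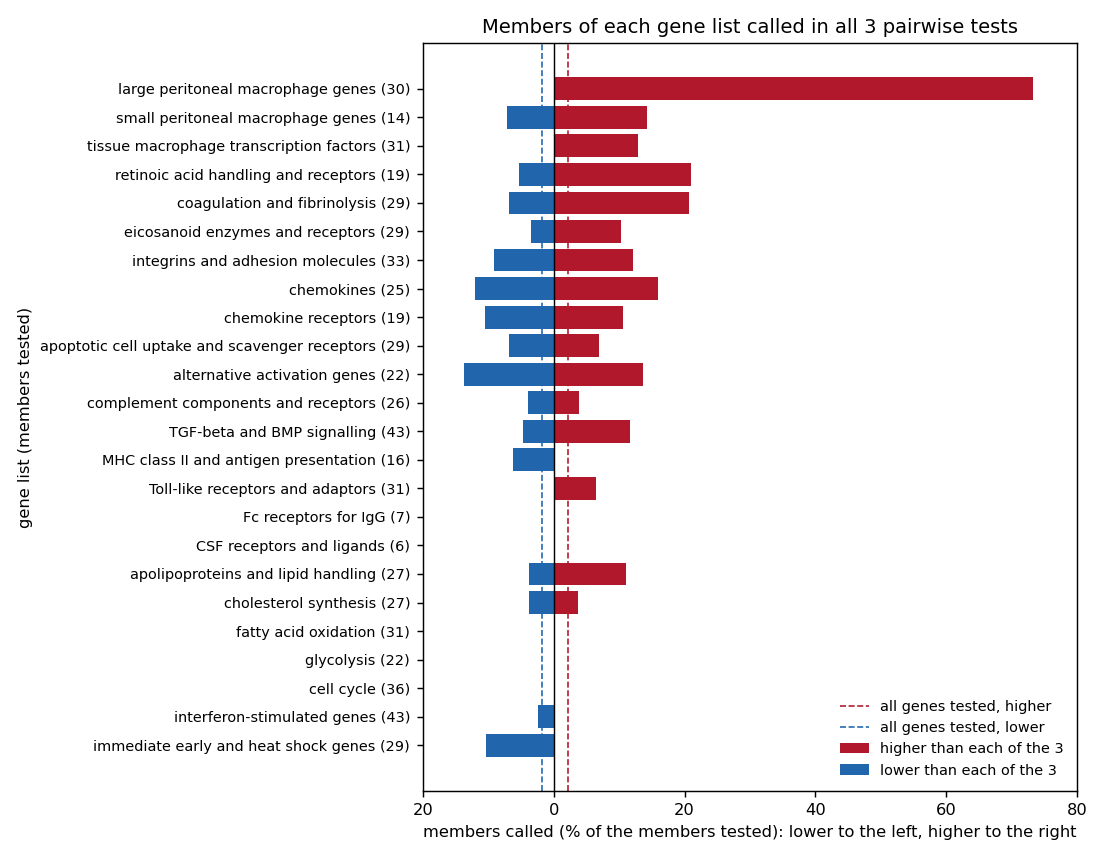
Share of the tested members of each gene list, in percent, that was higher (red) or lower (blue) in sorted PMs than in each of the 3 other populations, with the share of all genes tested for reference. The lists were chosen with earlier results of these data known, so the shares are a description. The large PM list reaches 73.3% higher, while the cell cycle, glycolysis, fatty acid oxidation, Fc receptor and CSF lists have no member called in all 3.

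Several genes were high in PMs and in some of the other populations. Cd5l and Vsig4 were high in PMs and KCs and low in MG and AMs. Cd5l, a secreted scavenger protein of macrophages, was at 1311 to 1481 CPM in PMs and 3982 to 7992 CPM in KCs, and Vsig4, a complement receptor, at 623 to 728 CPM and 1874 to 3778 CPM. Both were lower in PMs than in KCs. C1qb, a chain of complement C1q, was at 7400.5 to 8141 CPM in PMs, 5382 to 6164 CPM in MG, 6402 to 7553 CPM in KCs and at most 1.56 CPM in AMs, and was called against AMs alone. Marco, a scavenger receptor, was at 638 to 1076 CPM in PMs and was called against MG alone, where the highest library had 0.201 CPM.

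**Figure D5:**
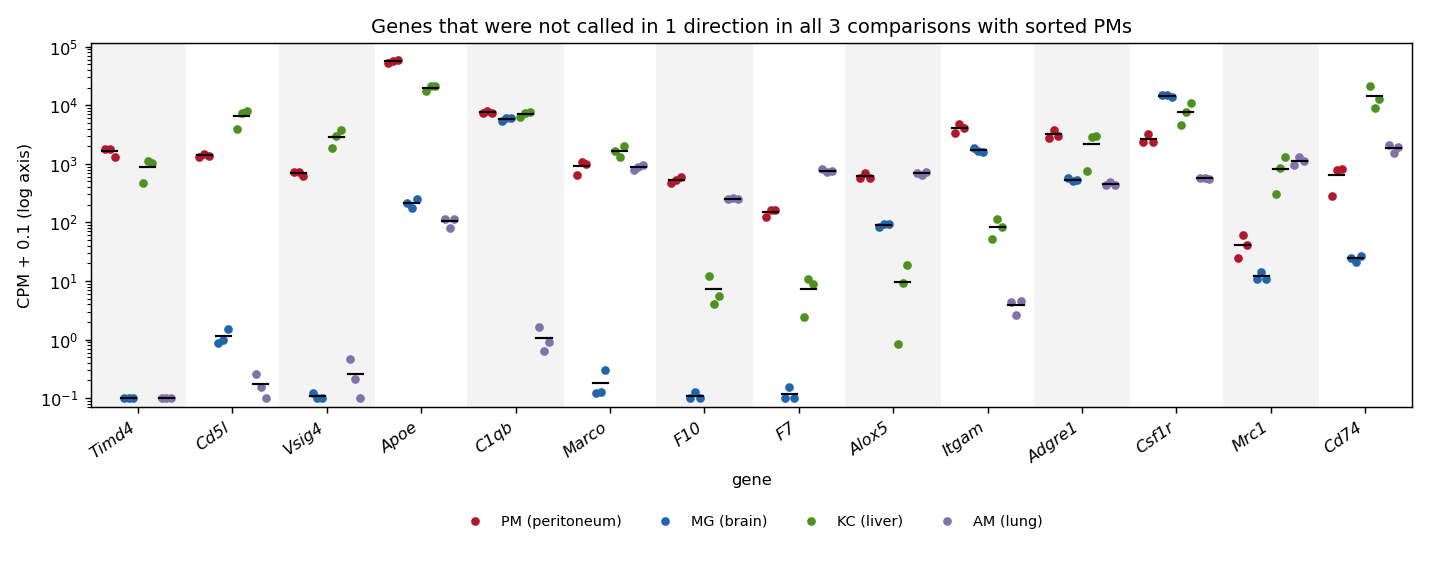
Normalized read counts (CPM + 0.1, log axis) of 14 genes, given along the horizontal axis, that were not called in 1 direction in all 3 comparisons, with 1 point per library and a bar at the mean of 3. Timd4, Cd5l and Vsig4 are high in PMs and KCs, F10 and F7 in PMs and AMs, and C1qb in PMs, MG and KCs.

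Csf1r, the receptor of M-CSF and the gene of the gating marker CD115, was at 2394, 3178 and 2321 CPM in PMs. It was 5.59-fold lower than in MG and 2.92-fold lower than in KCs, and 4.58-fold higher than in AMs. Adgre1, the gene of F4/80, was at 2715 to 3812 CPM in PMs, above MG and AMs, and was not called against KCs. Ptprc, the gene of CD45, was at 249.5 to 328 CPM and was called in none of the 3. Mrc1, the mannose receptor, was at 24.8 to 59.8 CPM in PMs, below KCs with 304 to 1307 CPM and AMs with 973 to 1309 CPM.

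Antigen presentation, cell cycle and interferon genes differed with the population compared. Of 16 tested genes of MHC class II and antigen presentation, 11 were lower in PMs than in KCs, where 11.2% of all genes were lower. Compared with MG, 6 were higher and 2 lower, against 14.1% and 11.4% of all genes. Compared with AMs, 3 were higher and 5 lower, against 12.2% and 9.07%. Without KC replicate 1, 10 were lower than in KCs. Cd74, the invariant chain, was at 287, 791 and 823 CPM in PMs, 21712, 9127 and 13039 CPM in KCs and 21.4 to 26.99 CPM in MG. Of 36 tested cell cycle genes, 25 were lower than in KCs, 27 were lower than in AMs and 20 were higher than in MG, against 11.2%, 9.07% and 14.1% of all genes. Without KC replicate 1, 19 were lower than in KCs. Mki67, a mark of dividing cells, was at 12.6, 10.9 and 11.9 CPM in PMs, 167, 31.9 and 66.2 CPM in KCs, 37.5 to 56.3 CPM in AMs and at most 1.92 CPM in MG. Of 43 tested interferon-stimulated genes, 25 were lower than in KCs, 24 were higher than in AMs and 18 were higher than in MG, against 11.2%, 12.2% and 14.1% of all genes. Without KC replicate 1, 26 were lower than in KCs. Ifit3b was the only member lower in all 3, and that call was lost under limma-voom and when each pair was fitted alone.

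The 11 mesothelial and fibroblast markers summed to 0.209 to 14.2 CPM, with 5 of them, Wt1 and Msln included, at 0 reads. The 8 B cell markers summed to 12.6 to 47.0 CPM and the 8 T and NK cell markers to 1.28 to 5.85 CPM. Mast cell markers summed to 6.41 to 24.4 CPM in PMs and 9.58 to 24.1 CPM in KCs, and Cma1, Mcpt4 and Tpsb2, proteases of mast cells, had reads in PMs and none in the other populations. The eosinophil list reached 15238 to 17343 CPM, nearly all of it Alox15, with 4 of its 6 members at 0 reads. The monocyte list summed to 738 to 1328 CPM in PMs and at most 398 CPM elsewhere. In PMs most of it was F13a1, while Ly6c2, the defining marker, was at 0.110 CPM at most. The hepatocyte list summed to 833 to 975 CPM in PMs and at most 395 CPM elsewhere, nearly all of it Trf, the gene of transferrin, at 833, 975 and 914 CPM, and Alb was at 0.119 CPM at most. Of its 8 members, 4, Apoa1 and Fgb included, had no read in PMs. The part of such cells in the levels of the PM genes was not tested.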

How the data were processed

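Total RNA of the sorted cells was made into SMARTer Ultra Low and Nextera XT libraries, which do not mark strand, and sequenced as single reads. The authors trimmed with Trimmomatic, aligned with STAR and deposited raw gene counts, with no normalization. The submitters' processing notes name Trimmomatic 0.36, STAR 2.5.2b and hg19, while the methods name other versions and the mouse build mm10, and the gene identifiers are of the mouse.

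From the 12 ex vivo columns, genes were kept by filterByExpr (minimum count 10) and normalized by TMM, and edgeR 4.0.16 (R 4.3.3) fitted 1 quasi-likelihood model over the 4 populations, with Benjamini-Hochberg adjustment over all 15732 genes. Contrasts set PMs against MG, KCs, AMs and their mean on the log2 scale. Named genes were the first 25 in each direction by the smallest difference of the 3, with a mean of at least 30 CPM on the higher side and no overlap, plus list members. The members and lists were chosen with earlier results of these data known. Alternatives were limma-voom (limma 3.58.1), DESeq2 1.42.0 and its size factors, other filters and fold thresholds, each pair fitted alone, a replicate block and leaving out each library. Promoters came from RefSeq. The statistics were tested on simulated data. Counts of 0 allow up to 3 reads, which covers counting error only.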

Additional observations from a re-analysis of the deposited data

How the results depend on the processing

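With a fold threshold of 1.5 on the linear scale, 3510 genes were higher and 3030 lower than in MG, 2241 and 2867 than in KCs, 2813 and 1988 than in the mean, 651 and 573 than in each of the 3, and 2580 were lower than in AMs. With no fold threshold the counts were 3770 and 3221 against MG, 2476 and 3128 against KCs, 2901 and 2827 against AMs, 3247 and 2358 against the mean, and 703 and 657 against each of the 3. The other alternatives stayed within 1.5 times the counts in the report. Leaving out 1 library in turn gave 1938 to 2427 genes higher and 1577 to 2069 lower than in MG, 934 to 1568 and 1414 to 2020 than in KCs, 1625 to 2326 and 1221 to 1557 than in AMs, 1418 to 2026 and 786 to 1030 than in the mean, and 295 to 467 and 242 to 308 than in each of the 3. The highest count against each of the 3, 467 genes, came without KC replicate 1.

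With a replicate block, 319 genes were higher and 253 lower than in each of the 3, and 311 and 250 of them were among the 346 and 284. Of 18 same-numbered pairs, 0 had deviations correlated above 0.1. Different tissues of the same mice need not deviate together, so this does not settle whether the numbers pair the samples. With limma-voom, 501 genes were higher and 235 lower than in each of the 3, and with DESeq2 345 and 323.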
